A study of Saccharomyces cerevisiae with 12 samples.

Results

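The 46 genes described here encode enzymes of amino acid synthesis in budding yeast, and they were taken as a fixed set from 6002 nuclear protein-coding genes. No measured value entered the rule for the set, but earlier results of these data were known when it was chosen. By pathway, 5 make arginine, 6 histidine, 10 the branched-chain amino acids, 7 lysine, 9 the aromatic amino acids, 7 serine, threonine and homoserine, and 2 proline. Marker genes were left out of the set, but LYS2, which also serves as a selection marker in yeast, is a member. For each gene the CpG sites between 500 bp upstream and 500 bp downstream of the start codon were read in all 12 libraries. The main window, from 250 bp to 51 bp upstream, is called the promoter window here. The far upstream window runs from 500 bp upstream to the promoter window, the start window from 50 bp upstream to 150 bp inside the gene, and the gene body window from there to 500 bp. The promoter window held the 2 CpG sites needed for a test at 45 of the 46 genes. At 9 of the 46 genes the next annotated gene upstream lay less than 250 bp away, and at 26 less than 500 bp. The upstream windows of these genes can therefore hold coding sequence of the neighbour.

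Chromatin accessibility was measured by ODM-seq. In this assay crosslinked chromatin is treated with the methyltransferase M.SssI, which reaches CpG sites only where neither a nucleosome nor another protein is in the way, and Nanopore reads then show the methylated sites. High methylation therefore marks open DNA. All strains descended from 1 clone (A9) of the strain ABF1-aa-V5, for which the labels name BY4741 as the background, an anchor-away strain in which rapamycin pulls the tagged chromosomal Abf1 out of the nucleus. Every culture grew in medium without leucine and received 8 µg/mL rapamycin for 75 min. The groups differed in a pRS315 plasmid: one for Abf1 with its essential motif shuffled (EM shuffle), the empty plasmid (no Abf1), or one for wild-type Abf1 (WT Abf1). The paper reports the EM shuffle construct as inviable. Per the paper its designed constructs used a shortened Abf1 without the first disordered region, with an added nuclear localization signal and Flag tag. By design EM shuffle and WT Abf1 thus differ in more than the motif. Each of the 3 constructs had 2 biological replicates, and each of the 6 preparations was sampled at 3 h and at 4 h of methylation. Values are averages over all cells of a culture, so a moderate fall in every cell and a complete loss in some of the cells cannot be told apart.

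Several facts of the libraries touch what follows. Coverage of the ABF1 gene relative to its flanks was 0.901 to 1.10 in the libraries labelled EM shuffle, 0.821 to 1.06 in no Abf1 and 1.78 to 1.92 in WT Abf1. Every WT Abf1 library was thus well above the other 8, which lay near 1. ABF1 and these flanks lie on chromosome XI, whose coverage in EM shuffle replicate 2 was 2.02 and 1.97 times the nuclear median. The ratio to the flanks does not show such a change of the whole chromosome. A plasmid that carries an ABF1 sequence adds copies of the gene, and no such excess over the flanks was seen in the libraries labelled EM shuffle. They are therefore called the libraries labelled EM shuffle, and what plasmid they held was not tested. Coverage of LEU2, the marker of the plasmid, was 0.104 to 0.308 of the nuclear median in the libraries labelled EM shuffle, 0.745 to 1.02 in no Abf1 and 0.462 to 0.719 in WT Abf1. With so little of the marker in the libraries labelled EM shuffle, few plasmid copies of ABF1 could have been seen there. The missing excess therefore cannot decide whether the label holds. The EM shuffle libraries also carry another batch label than the WT Abf1 and no Abf1 libraries, so batch and construct cannot be told apart in any comparison that uses them. Each library held between 13253872 and 37756743 calls on the nuclear chromosomes, and the median coverage of a CpG site from 32 to 94 calls. Percentages are given after the correction that the authors applied, a division by 0.871 for the libraries labelled EM shuffle and by 1.04 for no Abf1, which can take a value above 100%. Differences between constructs are given as log2 odds of methylation relative to each construct's genome average, with standard errors (SE), and a window was called at an adjusted p under 0.05. These averages were 24.6% for EM shuffle, 29.4% for no Abf1 and 28.2% for WT Abf1. Shifts between replicates of a construct remain. WT Abf1 averaged 28.7 and 30.3% in replicate 1 and 26.2 and 27.6% in replicate 2 (3 h before 4 h).

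Amino acid synthesis in yeast is under general control. When any amino acid runs short, the transcription activator Gcn4 is translated and binds the core sequence TGACTC in promoters of many pathways together. Abf1 is a general regulatory factor, an abundant DNA-binding protein that keeps promoters free of nucleosomes and sets the position of the nucleosomes next to its sites, and it acts beside pathway-specific activators such as Leu3 and Lys14.

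The Abf1 consensus was present once between 50 and 500 bp upstream of the start codon at 11 of the 46 genes. These sequences are shown because methylation beside and inside them is compared between constructs below. They were read from RefSeq R64, the build of the files, on the strand of the match, with the consensus match in capitals.
THR4 (chrIII:216480-216516, minus strand): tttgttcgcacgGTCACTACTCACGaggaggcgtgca
TRP2 (chrV:337758-337794, minus strand): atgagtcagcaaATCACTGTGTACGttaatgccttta
TRP3 (chrXI:38311-38347, minus strand): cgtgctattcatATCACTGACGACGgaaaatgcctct
PRO1 (chrIV:1063172-1063208, minus strand): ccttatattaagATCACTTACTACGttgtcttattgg
ARO3 (chrIV:521549-521585, minus strand): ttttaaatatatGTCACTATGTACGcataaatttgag
ARG1 (chrXV:218812-218848, plus strand): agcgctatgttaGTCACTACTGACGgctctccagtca
LYS21 (chrIV:227180-227216, minus strand): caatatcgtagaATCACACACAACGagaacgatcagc
HIS1 (chrV:265978-266014, plus strand): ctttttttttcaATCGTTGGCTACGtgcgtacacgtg
HIS6 (chrIX:314960-314996, minus strand): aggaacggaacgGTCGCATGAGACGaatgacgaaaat
LEU9 (chrXV:522749-522785, minus strand): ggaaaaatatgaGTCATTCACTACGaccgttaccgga
LYS4 (chrIV:930749-930785, minus strand): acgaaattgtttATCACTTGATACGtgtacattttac
Every match ends in a CpG, so that the site itself could be read by the enzyme. HIS1, HIS6 and TRP3 had a further CpG inside the match. The match centres lay between 158 bp (HIS6) and 399 bp (PRO1) upstream of the start codon.

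The stretches around 5 of these matches are shown on the coding strand because the CpG-by-CpG values below refer to them. Capitals mark the Abf1 match and the Gcn4 core TGACTC on either strand. The THR4, TRP2 and TRP3 stretches are the promoter windows, and the PRO1 and LYS4 stretches lie farther upstream around the match.
THR4 (chrIII:216447-216646, plus strand): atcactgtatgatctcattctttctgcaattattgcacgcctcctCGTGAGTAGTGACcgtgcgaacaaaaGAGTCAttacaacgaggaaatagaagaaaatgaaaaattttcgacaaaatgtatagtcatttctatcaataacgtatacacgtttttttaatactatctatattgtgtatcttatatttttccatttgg
TRP2 (chrV:337699-337898, plus strand): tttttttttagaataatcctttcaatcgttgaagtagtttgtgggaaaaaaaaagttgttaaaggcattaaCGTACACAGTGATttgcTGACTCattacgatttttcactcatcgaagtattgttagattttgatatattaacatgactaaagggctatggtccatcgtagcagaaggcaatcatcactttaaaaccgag
TRP3 (chrXI:38204-38403, minus strand): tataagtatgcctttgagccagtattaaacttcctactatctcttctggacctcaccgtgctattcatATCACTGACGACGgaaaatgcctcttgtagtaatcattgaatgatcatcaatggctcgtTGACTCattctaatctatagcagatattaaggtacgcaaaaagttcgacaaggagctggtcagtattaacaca
PRO1 (chrIV:1063112-1063261, minus strand): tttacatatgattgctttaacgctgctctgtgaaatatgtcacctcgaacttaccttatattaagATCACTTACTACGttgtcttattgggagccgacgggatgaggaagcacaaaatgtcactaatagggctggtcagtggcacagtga
LYS4 (chrIV:930659-930808, plus strand): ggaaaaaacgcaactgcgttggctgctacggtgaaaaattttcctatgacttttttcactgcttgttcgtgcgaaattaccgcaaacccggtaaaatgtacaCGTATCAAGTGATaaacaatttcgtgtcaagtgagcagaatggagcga
In THR4, TRP2 and TRP3 the Gcn4 core lay within the same promoter window as the Abf1 match, and the PRO1 and LYS4 stretches held none.

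Among all 46 genes the Gcn4 core, searched on both strands, was in the promoter window of 26 (56.5%), against 316 of 6002 genes (5.27%). Within 500 bp upstream it was in 33 of the 46 (71.7%), against 12.6% of all genes. The Abf1 consensus was about as frequent as elsewhere, with 6 of 46 promoter windows against 11.4% of all. The Reb1 letters TTACCCG were in the window of TRP5 alone (1 of 46, against 6.98% of all), and the Rap1 consensus in that of HOM6 alone (1 of 46, against 0.433%). The Leu3 consensus was found at LEU1 and BAT1 (4.35%, against 0.100%), and the Lys14 letters TCCNNNGGA at LYS1, LYS9 and LYS12 (6.52%, against 2.22%). The Cbf1 letters CACGTG were at HIS1, ARO2 and HOM6 (6.52%, against 2.42%). TATAAA was in 18 windows (39.1%), against 37.9% of all. These are matches of letters and say nothing of binding.

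The promoter windows of these genes were methylated above the genome-wide median in every construct, as a description with no test. The median promoter window of the 45 tested genes was methylated to 67.2% in the libraries labelled EM shuffle, 55.7% in no Abf1 and 59.9% in WT Abf1, where the medians of all 5846 tested windows were 53.1%, 48.6% and 50.2% for the same constructs. Averaged in bins of 50 bp, methylation was highest in the bin from 250 bp upstream, at 74.3% ± 1.34 in the libraries labelled EM shuffle, 61.6% ± 0.511 in no Abf1 and 65.3% ± 2.03 in WT Abf1 (SD, n = 2 replicates each, 37 genes with a CpG in the bin). In the same bin all genes averaged 44.3%, 40.9% and 42.0% in that order of constructs, and their maximum lay in the bin from 150 bp upstream. The genes of the set stood at 17.8%, 19.4% and 18.4% in the bin from 100 bp inside the gene.

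**Figure D1:**
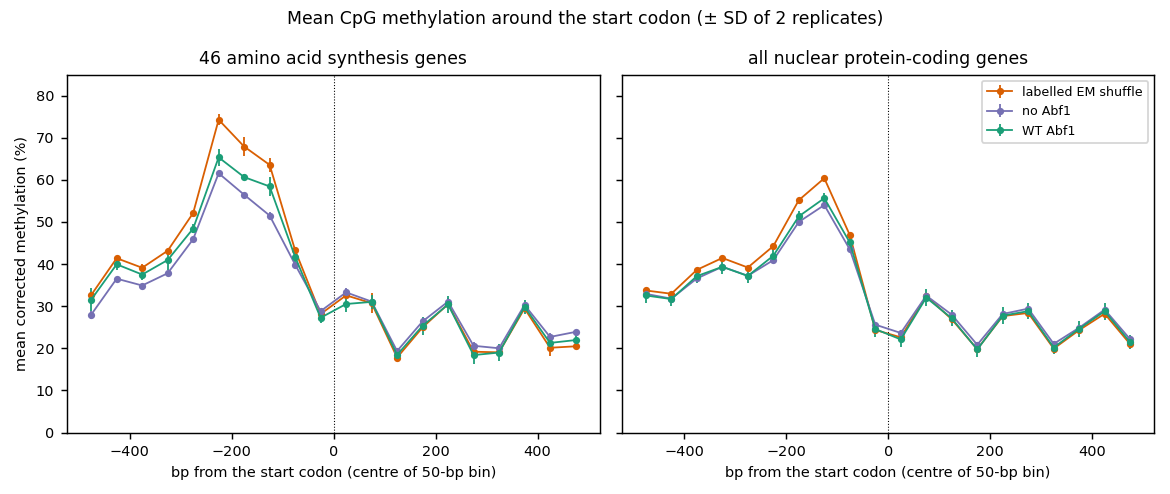
Mean corrected CpG methylation in 50-bp bins (y axis, %) against distance from the start codon (x axis, bp) for the 46 amino acid synthesis genes (left) and all nuclear protein-coding genes (right). Points are means of 2 replicates with SD. In WT Abf1 the bin from 250 bp upstream stands at 65.3% in the set and at 42.0% over all genes.

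The level of a promoter differed widely between genes. In WT Abf1 the highest promoter was that of THR1, homoserine kinase, with 80.2, 87.4, 79.4 and 87.1% in the 4 libraries. The lowest was that of ILV2, the catalytic subunit of acetolactate synthase, with 23.2, 23.0, 19.1 and 23.2%. The arginine genes ran between 76.5% ± 0.394 at ARG3, ornithine carbamoyltransferase, and 30.4% ± 3.26 at CPA1, the small subunit of carbamoyl phosphate synthetase. The histidine genes ran between 64.9% ± 0.412 at HIS6 and 33.2% ± 5.12 at HIS2, and the branched-chain genes between 81.7% ± 2.68 at ILV5 and 22.0% ± 1.63 at ILV2. The lysine genes ran between 68.5% ± 4.63 at LYS1, saccharopine dehydrogenase, and 24.2% ± 2.45 at LYS4, homoaconitase. The aromatic genes ran between 81.9% ± 1.9 at TRP5, tryptophan synthase, and 34.0% ± 2.43 at ARO3. The serine, threonine and homoserine genes ran between 83.1% ± 0.145 at THR1 and 39.1% ± 1.03 at HOM6, homoserine dehydrogenase. The proline genes were close together, with 61.2% ± 0.0883 at PRO1 and 53.6% ± 1.71 at PRO2. All of these are means of 2 replicates with SD. The low promoter window of LYS4 lay next to an open region: its far upstream window was methylated to 63.0% ± 2.09 in WT Abf1.

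LYS2, α-aminoadipate reductase, was the gene without a tested promoter. Its coverage was 0.0370 to 0.0538 of the nuclear median in all 12 libraries, where the other genes of the set apart from TRP3 had 0.608 to 1.44. Its far upstream window passed the minimum with 2 CpG sites and 33 to 111 calls per library, and it was not called. BY4741 carries an intact LYS2, so this coverage goes against the labelled background in every library. Why the gene was barely covered was not tested.

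Without Abf1, methylation fell at 6 of the 45 tested promoters and rose at none. Genome-wide, 678 of 5846 promoter windows (11.6%) were called in this comparison, 438 of them lower (7.49%) and 240 higher (4.11%), so that the 6 called of 45 (13.3%) were near the background. The 6 were THR4, TRP3, ARO4, LEU4, TRP2 and ILV6. By pathway, 3 of 9 aromatic genes, 2 of 10 branched-chain genes and 1 of 7 serine, threonine and homoserine genes fell, and no gene of the arginine, histidine, lysine or proline lists passed the test. At an unadjusted p under 0.05 there were 13 of 45, against 20.5% of all windows, and the median difference was −0.06, against −0.003 over all windows. With the 3 h aliquots alone, the 4 h aliquots alone, no correction to the genome average or a window of 200 to 1 bp, 2 of the 45 were called. Leaving out 1 replicate gave 2 to 5, with 2 without WT Abf1 replicate 1 and 3 without no Abf1 replicate 1 or 2. With 2 replicates a construct, an exact permutation test of a single gene cannot go below a two-sided p of 0.3333, so all adjusted p-values come from the model fitted across all windows with limma's moderation.

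THR4, threonine synthase, showed the greatest fall in the set. Its promoter window of 8 CpG sites (chrIII:216447-216646) was methylated to 40.8, 41.7, 36.3 and 39.5% in the no Abf1 libraries, against 60.1, 61.5, 59.1 and 57.1% in WT Abf1. Every no Abf1 library lay below every WT Abf1 library, with 1155 to 1515 calls and 737 to 925 calls per replicate. Such a separation downward was seen at 8 of the 45 tested promoters and at 694 of 5846 windows (11.9%) genome-wide. The difference was −1.12 ± 0.13 log2 odds (SE, limma-moderated adjusted p = 7.23e-07), and it was called under all 18 alternative settings, where it ranged from −1.35 to −1.03.

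TRP3 and TRP2 encode the subunits of anthranilate synthase, which starts the tryptophan branch. TRP3 (6 CpG sites, chrXI:38204-38403) stood at 28.5, 31.7, 28.8 and 27.6% in no Abf1, against 37.7, 39.7, 37.7 and 42.4% in WT Abf1, a difference of −0.63 ± 0.15 log2 odds (limma-moderated adjusted p = 0.0052). TRP2 (6 CpG sites, chrV:337699-337898) stood at 37.7, 36.0, 40.6 and 39.8% in no Abf1, against 46.8, 49.2, 47.7 and 44.5% in WT Abf1, a difference of −0.46 ± 0.13 (limma-moderated adjusted p = 0.019). At both genes the 2 constructs did not overlap. The TRP3 call was lost with the 4 h aliquots alone, with the window of 200 to 1 bp, without WT Abf1 replicate 2 (−0.59, adjusted p = 0.0732) and without no Abf1 replicate 2 (−0.56, adjusted p = 0.0621). The TRP2 call held in 10 of 18 alternatives and was lost without WT Abf1 replicate 1, WT Abf1 replicate 2 or no Abf1 replicate 1.

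ARO4, LEU4 and ILV6 fell without an Abf1 match within 500 bp. The consensus was searched as exact letters with a fixed spacing, so a gene without a match can still hold an Abf1 site. The paper reports that sites mapped in living cells can lack the sequence motif. The nearest upstream matches of ARO4, LEU4 and ILV6 were 22692, 14408 and 6476 bp away. ARO4 is a DAHP synthase, the entry enzyme of the aromatic pathway, and its window (6 CpG sites) had 33.1, 35.3, 35.1 and 35.6% in no Abf1, against 40.9, 46.01, 41.1 and 44.3% in WT Abf1. LEU4, the main α-isopropylmalate synthase, had 34.8, 39.2, 33.3 and 32.4% in no Abf1, against 40.5, 46.2, 39.2 and 45.4% in WT Abf1 (8 CpG sites). ILV6, the regulatory subunit of acetolactate synthase, had 54.6, 51.8, 52.6 and 55.7% in no Abf1, against 61.3, 63.4, 56.1 and 59.6% in WT Abf1 (11 CpG sites). The gene STP22 lies 147 bp upstream of ILV6, so part of the ILV6 window is STP22 coding sequence. The groups were apart at ARO4 and ILV6 and touched at LEU4, where a no Abf1 library reached the level of the lowest WT Abf1 library. The differences were −0.48 ± 0.13, −0.46 ± 0.13 and −0.34 ± 0.11 log2 odds at ARO4, LEU4 and ILV6, with limma-moderated adjusted p of 0.015, 0.017 and 0.039. These calls were less stable than that of THR4, with 10, 9 and 6 of 18 alternatives still called at ARO4, LEU4 and ILV6, all in the same direction. ARO4 lost its call without WT Abf1 replicate 1 or 2 or no Abf1 replicate 1, LEU4 without WT Abf1 replicate 1 or 2 or no Abf1 replicate 2, and ILV6 without any replicate but WT Abf1 replicate 2.

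The nearest genes that did not pass were HIS5, LYS21 and HIS4, with limma-moderated adjusted p of 0.063, 0.066 and 0.069. HIS5, histidinol-phosphate aminotransferase, averaged 40.8% ± 2.55 in no Abf1 and 52.3% ± 0.257 in WT Abf1, over only 2 CpG sites. LYS21, a homocitrate synthase, averaged 45.3% ± 0.913 in no Abf1 and 51.8% ± 1.36 in WT Abf1. HIS4, which catalyses several steps of histidine synthesis, averaged 49.3% ± 2.37 in no Abf1 and 56.7% ± 0.714 in WT Abf1 (SD, n = 2 each). ILV2 had the highest positive value, 0.44 ± 0.19 log2 odds, with an adjusted p of 0.154.

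**Figure D2:**
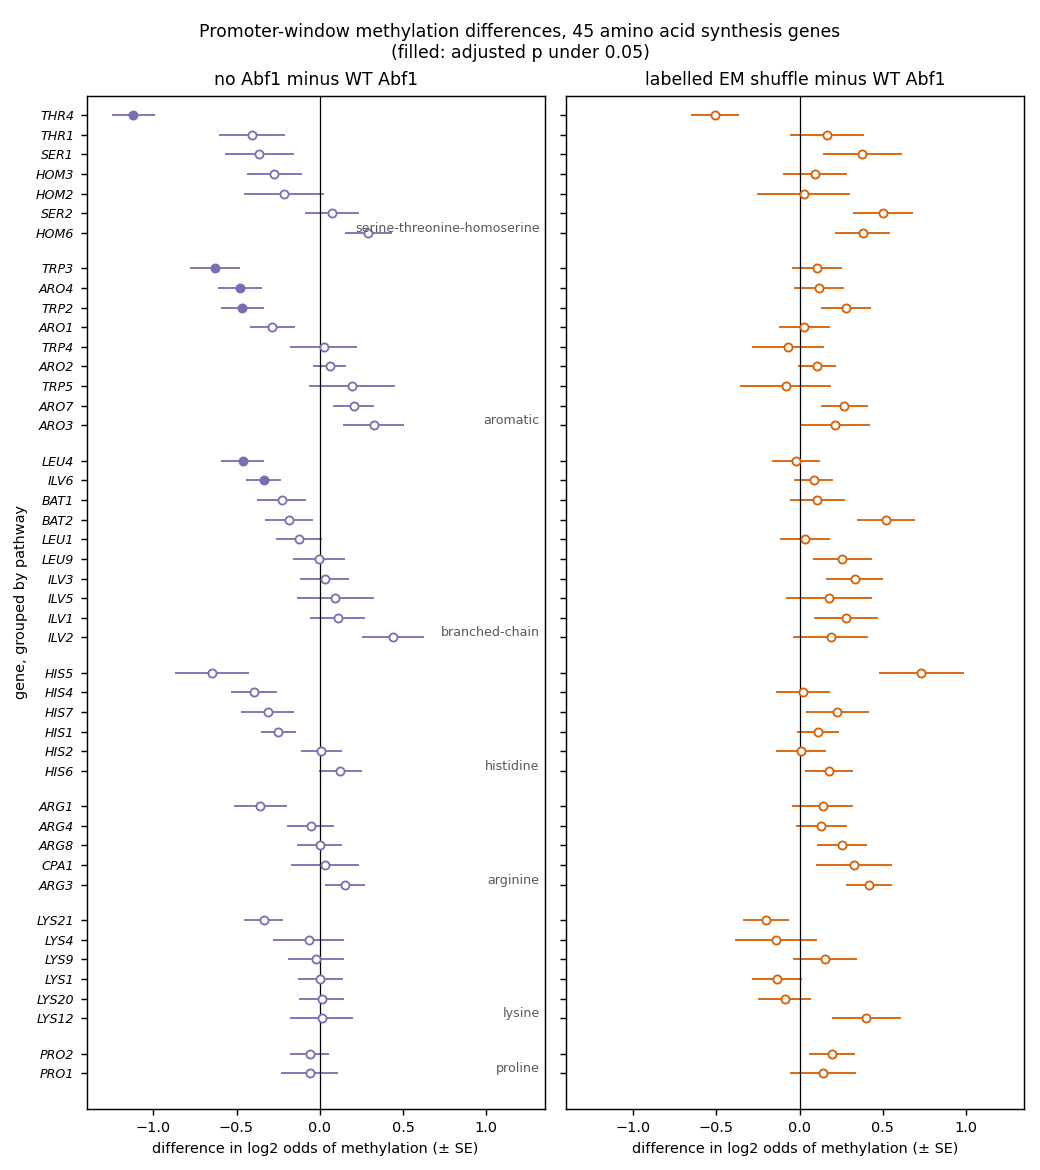
Difference in log2 odds of promoter-window methylation (x axis, ± SE) for each of 45 genes (y axis, by pathway), for no Abf1 minus WT Abf1 (left) and the libraries labelled EM shuffle minus WT Abf1 (right). Filled points have an adjusted p under 0.05: 6 genes on the left, all below 0 with THR4 at −1.12, and none on the right.

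In no Abf1 against WT Abf1, 3 of 11 promoters with a match 50 to 500 bp upstream were called (27.3%) and 3 of 34 without (8.82%). Over all genes these shares were 39.5% of 999 and 5.84% of 4847. In the far upstream window, 6 of 11 genes with a match were called (54.5%) and 6 of 35 without (17.1%), where all genes gave 27.5% and 4.96%.

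The DNA beside the matches was measured separately. Flanks were CpG sites 10 to 75 bp from the centre of a match. Of 753 promoter matches with tested flanks, 482 (64.0%) were called in no Abf1 against WT Abf1, 441 lower (58.6%) and 41 higher (5.44%). Of the 11 matches in the set, 9 were called, 7 lower and 2 higher.

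The flanks fell at THR4, TRP2, TRP3, PRO1, ARO3, ARG1 and LYS21. At TRP2 they stood at 38.1, 33.7, 43.4 and 42.8% in no Abf1, against 70.7, 79.1, 73.2 and 69.0% in WT Abf1 (−1.96 ± 0.22 log2 odds, limma-moderated adjusted p = 4.11e-09). At THR4 they stood at 43.0, 44.2, 35.9 and 37.4% in no Abf1, against 74.7, 69.4, 70.7 and 69.0% in WT Abf1 (−1.83 ± 0.20, limma-moderated adjusted p = 3.04e-09). At PRO1, γ-glutamyl kinase, they stood at 33.7, 35.2, 33.7 and 33.9% in no Abf1, against 67.2, 71.4, 61.1 and 60.9% in WT Abf1 (−1.81 ± 0.17, limma-moderated adjusted p = 2.89e-10). The 2 constructs were far apart at all of these.

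At TRP3 the flanks stood at 24.3, 26.6, 29.3 and 29.3% in no Abf1, against 54.2, 60.8, 54.6 and 60.2% in WT Abf1 (−1.81 ± 0.27, limma-moderated adjusted p = 5.55e-07). At ARO3, the other DAHP synthase, they stood at 35.5, 41.5, 38.5 and 39.7% in no Abf1, against 66.2, 71.8, 66.8 and 59.3% in WT Abf1 (−1.59 ± 0.21, limma-moderated adjusted p = 6.12e-08). At ARG1, argininosuccinate synthase, they stood at 52.4, 54.1, 53.6 and 58.4% in no Abf1, against 76.2, 67.8, 67.5 and 68.4% in WT Abf1 (−0.93 ± 0.15, limma-moderated adjusted p = 2.96e-06). The groups were apart at these matches as well. LYS21 was closer, with 50.8, 48.9, 47.0 and 47.9% in no Abf1, against 57.3, 57.3, 57.9 and 50.6% in WT Abf1 (−0.41 ± 0.13, limma-moderated adjusted p = 0.0073), and a WT Abf1 library reached below the highest no Abf1 library. Its call was lost without WT Abf1 replicate 1 (−0.36, adjusted p = 0.0587) or no Abf1 replicate 2 (−0.34, adjusted p = 0.0626), and the adjusted p over all its alternatives ranged from 0.00695 to 0.242.

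At LYS4 and LEU9 the flanks rose instead. LYS4 stood at 70.7, 72.9, 68.1 and 72.3% in no Abf1, against 57.5, 48.2, 46.8 and 48.2% in WT Abf1, a rise of 1.42 ± 0.17 log2 odds (limma-moderated adjusted p = 1.13e-08) that held in all 10 alternatives. LEU9, the second α-isopropylmalate synthase, stood at 71.6, 75.2, 71.1 and 79.5% in no Abf1, against 69.7, 71.4, 69.9 and 69.0% in WT Abf1, a rise of 0.48 ± 0.14 (limma-moderated adjusted p = 0.0041). The LYS4 groups were apart, and the LEU9 groups met at about 71%. The LEU9 call was lost without no Abf1 replicate 2 (0.41, adjusted p = 0.0621), and the adjusted p over all its alternatives ranged from 0.000963 to 0.278. HIS1 and HIS6 did not pass, with −0.27 ± 0.15 and −0.13 ± 0.18 log2 odds and limma-moderated adjusted p of 0.103 and 0.535.

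The CpG inside the match went the other way from most flanks. It was methylated more in no Abf1 than in WT Abf1 at all 11 matches, both after and before the correction, where over all 829 promoter matches outside coding sequence this held for 655 (79.0%) after the correction. The median over the 11 was 43.1% in the libraries labelled EM shuffle, 55.9% in no Abf1 and 36.8% in WT Abf1, and over all 829 it was 45.5%, 51.9% and 36.0%. The place of the libraries labelled EM shuffle depends on the correction. They were above WT Abf1 at 9 of the 11 matches after it and at 6 before it. The widest gaps between no Abf1 and WT Abf1 were at LYS4, with 61.7% ± 1.87 against 36.7% ± 9.34, at LEU9, with 54.9% ± 3.56 against 32.0% ± 4.79, and at ARG1, with 55.9% ± 1.92 against 33.1% ± 2.70 (SD, n = 2 each). These are single CpG sites with 91 to 190 calls per replicate, and they were not tested one by one.

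**Figure D3:**
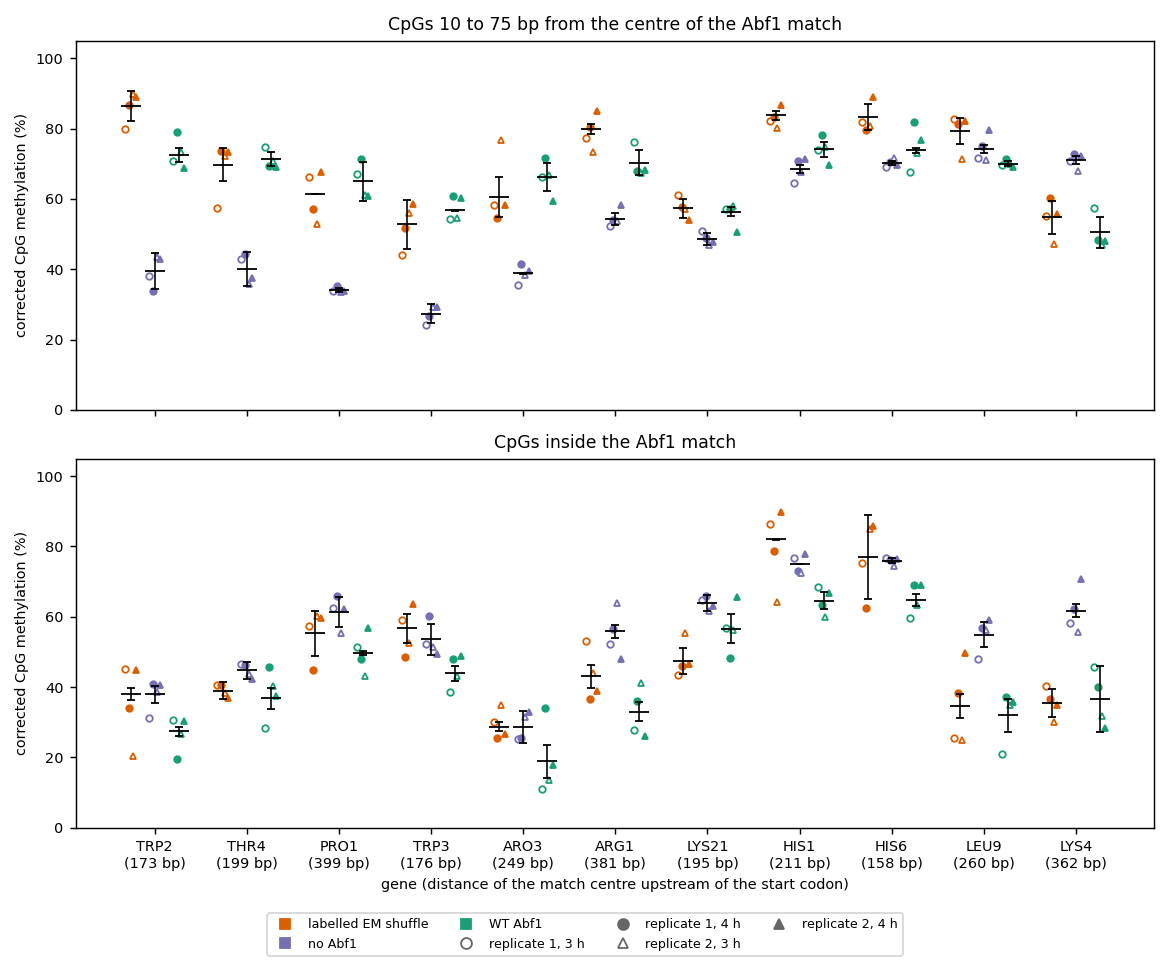
Corrected methylation (y axis, %) in each library for CpG sites flanking the Abf1 match (top) and inside it (bottom) at 11 genes (x axis, with the distance of the match from the start codon). Circles are replicate 1, triangles replicate 2, open symbols 3 h and filled symbols 4 h; bars are the mean ± SD of 2 replicates. In the top panel no Abf1 lies below WT Abf1 at TRP2 (39.5% against 72.6%) and above it at LYS4 (71.0% against 50.6%).

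CpG by CpG, the THR4 promoter was lower on both sides of its match without Abf1. Only some of the CpG sites of each gene are given here and below, and they were not tested one by one. In no Abf1 the sites at −213, −188, −167 and −138 (bp from the start codon) stood at 39.6, 35.0, 44.8 and 39.9%, against 71.8, 59.2, 77.2 and 76.5% in WT Abf1. The site at −192, between them, stood at 40.7% in no Abf1 and 33.1% in WT Abf1. The CpG in the match stood at 44.7% in no Abf1 and 36.8% in WT Abf1. The gene body window was higher, with 34.7% ± 1.20 in no Abf1 and 26.2% ± 5.29 in WT Abf1 (0.61 ± 0.14 log2 odds, limma-moderated adjusted p = 0.0011).

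At the TRP2 sites given here, out of 23 CpG sites within 500 bp of the start codon, high and low values changed places. In no Abf1 the sites at −152 and −137 stood at 23.9% ± 5.28 and 13.5% ± 6.15, against 65.6% ± 0.983 and 66.3% ± 3.75 in WT Abf1. Nearer the gene, the sites at −54 and −42 stood at 53.4% ± 2.65 and 64.7% ± 6.95 in no Abf1, against 16.5% ± 2.11 and 24.5% ± 0.665 in WT Abf1. Inside the gene the site at 65 bp stood at 8.22% ± 0.858 in no Abf1, against 42.1% ± 3.47 in WT Abf1, and the site at 128 bp at 36.1% ± 4.96, against 12.9% ± 0.117. The start window rose by 0.51 ± 0.14 log2 odds, and the gene body window fell, with a difference of −0.78 ± 0.17 (limma-moderated adjusted p of 0.029 and 0.00030).

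The TRP3 sites given showed the same alternation over the promoter and first 200 bp. In no Abf1 the site at −125 stood at 16.4% ± 3.73, against 55.8% ± 2.64 in WT Abf1, and the site at −20 at 48.3% ± 10.6, against 23.5% ± 0.867. The sites at 129 and 156 bp inside the gene stood at 40.3% ± 2.34 and 53.8% ± 1.91 in no Abf1, against 15.2% ± 3.10 and 26.3% ± 0.499 in WT Abf1. The start window rose by 0.51 ± 0.15 and the gene body window by 0.62 ± 0.12 log2 odds (limma-moderated adjusted p of 0.048 and 3.67e-05). TRP3 lies on chromosome XI, whose coverage in EM shuffle replicate 2 was 2.02 and 1.97 times the nuclear median in the 3 h and 4 h aliquots. The EM shuffle values of TRP3 are given with that in view. That replicate also enters every other comparison with the libraries labelled EM shuffle, and its share in them was not tested.

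At PRO1 the change stayed close to the match, 399 bp upstream. The sites at −449 and −424 stood at 20.2% ± 0.440 and 56.6% ± 1.76 in no Abf1, against 60.8% ± 6.57 and 81.3% ± 2.2 in WT Abf1. The promoter window nearer the gene averaged 59.3% in no Abf1 and 61.2% in WT Abf1 (−0.06 ± 0.17 log2 odds, limma-moderated adjusted p = 0.911). PRO1 shares its 560 bp intergenic region with the divergent gene CFT1.

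At LYS4 methylation was higher over and beside the match. In no Abf1 the sites at −403, −399 and −390 stood at 68.2, 62.2 and 59.4%, against 29.5, 26.5 and 27.8% in WT Abf1. Nearer the gene, the 4 most proximal sites of the far upstream window stood at 80.3 to 88.7% in no Abf1 and 80.9 to 89.9% in WT Abf1. LYS4 shares its 771 bp intergenic region with the divergent gene RTN1.

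At ARO3 the start of the gene fell. The start window stood at 19.4, 19.3, 21.5 and 25.9% in no Abf1, against 33.2, 32.9, 32.3 and 29.8% in WT Abf1 (−0.80 ± 0.16 log2 odds, limma-moderated adjusted p = 0.0014). Between match and gene, the site at −177 stood at 13.1% ± 3.59 in no Abf1, against 61.3% ± 1.66 in WT Abf1, while the site at −84 stood at 51.2% ± 2.59, against 21.2% ± 1.06. The promoter window of ARO3 holds both kinds of site and was not called (0.32 ± 0.18 log2 odds, adjusted p = 0.354).

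**Figure D4:**
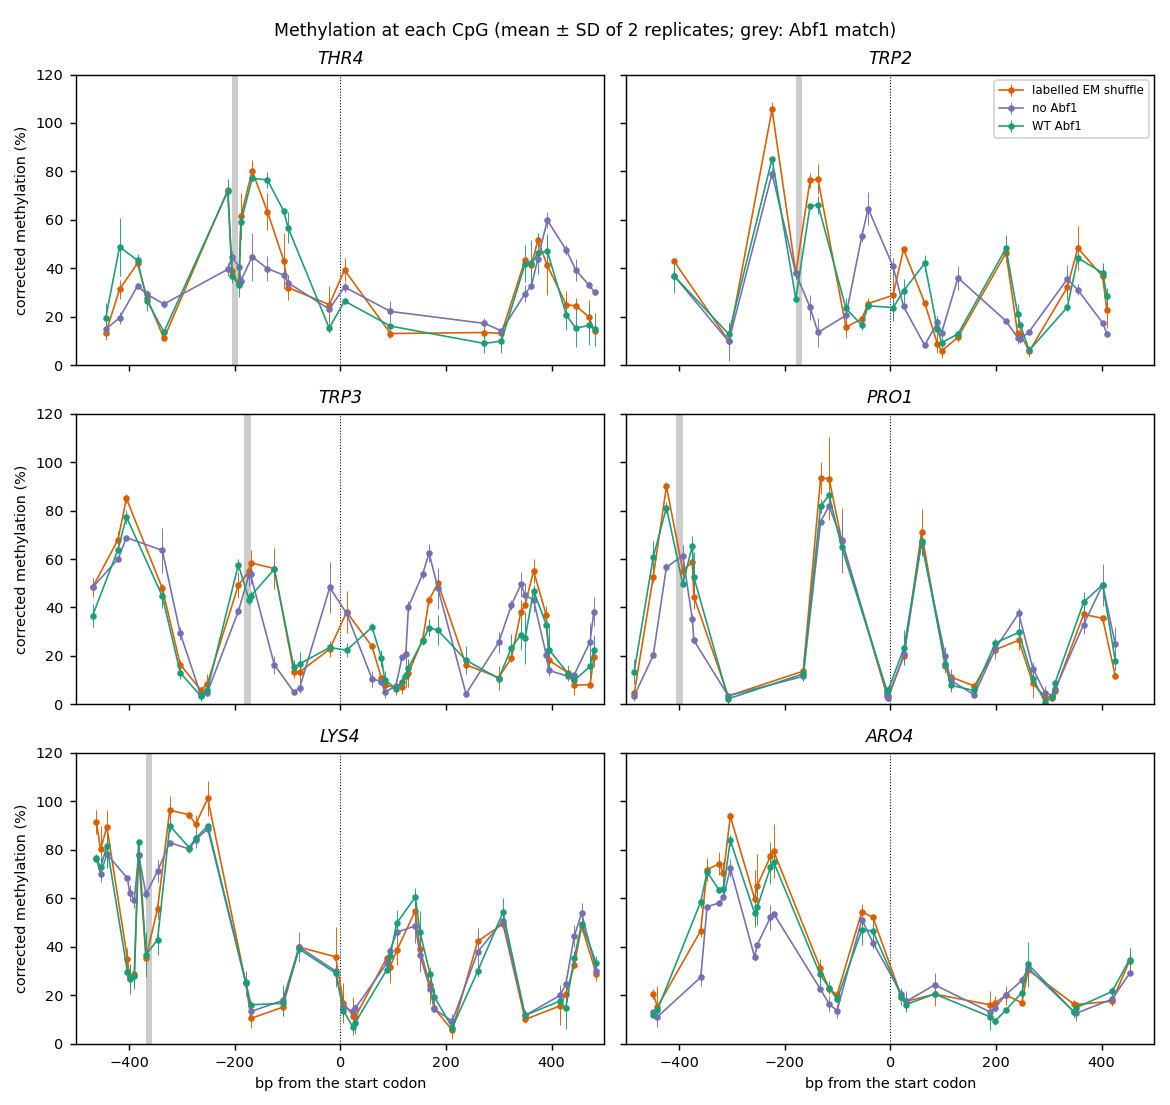
Corrected methylation of each CpG (y axis, %) against its distance from the start codon (x axis, bp) at THR4, TRP2, TRP3, PRO1, LYS4 and ARO4. Points are means of 2 replicates with SD, and the grey band is the Abf1 match, which ARO4 lacks. At TRP2 the site at −137 stands at 13.5% in no Abf1 and 66.3% in WT Abf1.

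In the windows over and past the start codon few genes of the set were called in no Abf1 against WT Abf1. In the start window these were 3 of 44 (ARO3, TRP2 and TRP3), against 4.34% of all windows (3.17% higher and 1.17% lower), and in the gene body 3 of 45 (TRP3, THR4 and TRP2), against 3.84% (2.64% higher and 1.20% lower). In the start window 10 of 44 had an unadjusted p under 0.05, against 13.9% of all. Leaving out 1 replicate gave 0 to 3 called genes in the start window, with 0 without no Abf1 replicate 1 and 1 without WT Abf1 replicate 1 or 2 or no Abf1 replicate 2. It gave 1 to 6 in the gene body, with 1 without no Abf1 replicate 2 and 6 without WT Abf1 replicate 1.

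In the far upstream window 12 of the 46 genes were called, 10 lower and 2 higher, against 8.77% of all 5942 windows (3.90% lower and 4.86% higher). Leaving out 1 replicate gave 8 to 12. The falls were at PRO1, HIS1, LEU4, ARO4, TRP4, HIS4, ARG1, BAT2, LYS21 and CPA1, and the rises at LYS4 and LEU9. The greatest fall was at PRO1, with 28.8, 30.8, 28.3 and 29.1% in no Abf1, against 47.6, 52.2, 42.2 and 45.1% in WT Abf1 (−1.05 ± 0.14 log2 odds, limma-moderated adjusted p = 9.08e-07). HIS1, which encodes the first enzyme of histidine synthesis, followed with 40.9, 54.1, 44.9 and 44.7% in no Abf1, against 59.6, 63.6, 62.1 and 62.1% in WT Abf1 (−0.88 ± 0.13, limma-moderated adjusted p = 1.46e-05). The groups did not overlap at either gene. LYS4 rose, with 73.8, 73.9, 72.2 and 77.2% in no Abf1, against 67.8, 59.7, 60.9 and 62.3% in WT Abf1 (0.93 ± 0.12, limma-moderated adjusted p = 1.45e-06).

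LEU4 and ARO4, whose promoter windows fell with no match nearby, fell here too. LEU4 had 52.7, 57.7, 53.9 and 50.4% in no Abf1, against 66.5, 71.3, 61.5 and 67.0% in WT Abf1 (12 CpG sites, −0.72 ± 0.12, limma-moderated adjusted p = 4.43e-05). ARO4 had 41.0, 41.7, 38.9 and 41.5% in no Abf1, against 51.9, 55.6, 48.2 and 53.9% in WT Abf1 (9 CpG sites, −0.64 ± 0.13, limma-moderated adjusted p = 0.00044). Both genes were apart between constructs, and at ARO4 the site at −359 stood at 27.4% ± 3.55 in no Abf1, against 58.6% ± 2.51 in WT Abf1. This ARO4 stretch, the far upstream window on the coding strand, is shown because it fell without holding an exact match of the consensus. The capitals mark the Gcn4 core.
ARO4 (chrII:718245-718494, minus strand): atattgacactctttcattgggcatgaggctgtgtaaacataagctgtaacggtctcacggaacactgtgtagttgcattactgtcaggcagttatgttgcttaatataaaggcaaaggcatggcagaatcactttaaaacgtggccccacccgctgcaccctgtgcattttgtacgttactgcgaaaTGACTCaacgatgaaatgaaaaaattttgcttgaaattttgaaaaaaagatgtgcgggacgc
The Gcn4 core of ARO4 lay in this window and not in its promoter window.

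The other falls in this window were smaller. TRP4, anthranilate phosphoribosyltransferase, averaged 34.9% ± 1.05 in no Abf1 and 45.7% ± 4.27 in WT Abf1. HIS4 averaged 32.1% ± 0.435 in no Abf1 and 41.2% ± 1.58 in WT Abf1, ARG1 53.9% ± 1.22 and 63.0% ± 3.30, and BAT2, the cytosolic branched-chain aminotransferase, 41.8% ± 0.733 and 50.5% ± 6.11 (no Abf1 before WT Abf1 for each). LYS21 averaged 62.3% ± 0.0862 in no Abf1 and 70.8% ± 3.00 in WT Abf1, and CPA1 44.2% ± 1.84 in no Abf1 and 52.3% ± 2.90 in WT Abf1 (SD, n = 2 each). Their differences ran from −0.63 to −0.43 log2 odds. At HIS4 the gene BIK1 lies 265 bp upstream, so most of the HIS4 far upstream window is BIK1 coding sequence. Of the 12 genes called, 6 had an Abf1 match within 500 bp, and TRP4, HIS4, BAT2 and CPA1 joined LEU4 and ARO4 among those without, with the nearest match of CPA1 632 bp upstream.

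In the libraries labelled EM shuffle the promoters stayed near WT Abf1 on the log odds scale. None of the 45 tested promoters was called against WT Abf1 in the limma-moderated fit, where 63 of 5846 windows (1.08%) were called genome-wide, 0.496% higher and 0.582% lower. At an unadjusted p under 0.05 there were 6 of 45, against 12.3% of all, and limma on log2 odds called 1, higher. The median difference was 0.14 log2 odds, against 0.06 over all windows, and 37 of 45 genes had a positive value, against 3517 of 5846 windows. The smallest adjusted p was at THR4, which averaged 52.9% ± 4.33 in the libraries labelled EM shuffle and 59.4% ± 1.84 in WT Abf1 (−0.51 ± 0.14, limma-moderated adjusted p = 0.090). ARG3 followed with 89.9% ± 0.296 and 76.5% ± 0.394 (0.42 ± 0.14, adjusted p = 0.159), and BAT2 with 83.0% ± 6.65 and 68.1% ± 0.252 (0.52 ± 0.17, adjusted p = 0.168), the EM shuffle value first.

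The scale decides how this comparison reads. Before the correction ARG3 averaged 78.3% and BAT2 72.3% in the libraries labelled EM shuffle. Without the correction to the genome average, which shifts this construct by −0.27 log2 odds, 2 of 45 genes were called, both lower, and with limma on corrected percentages 22 were called, all higher. On corrected percentages 16 of the 45 genes had all 4 libraries labelled EM shuffle above all 4 of WT Abf1 and 1 had them below, against 20.6% of all windows that did not overlap. No direction for the set follows from this comparison.

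**Figure D5:**
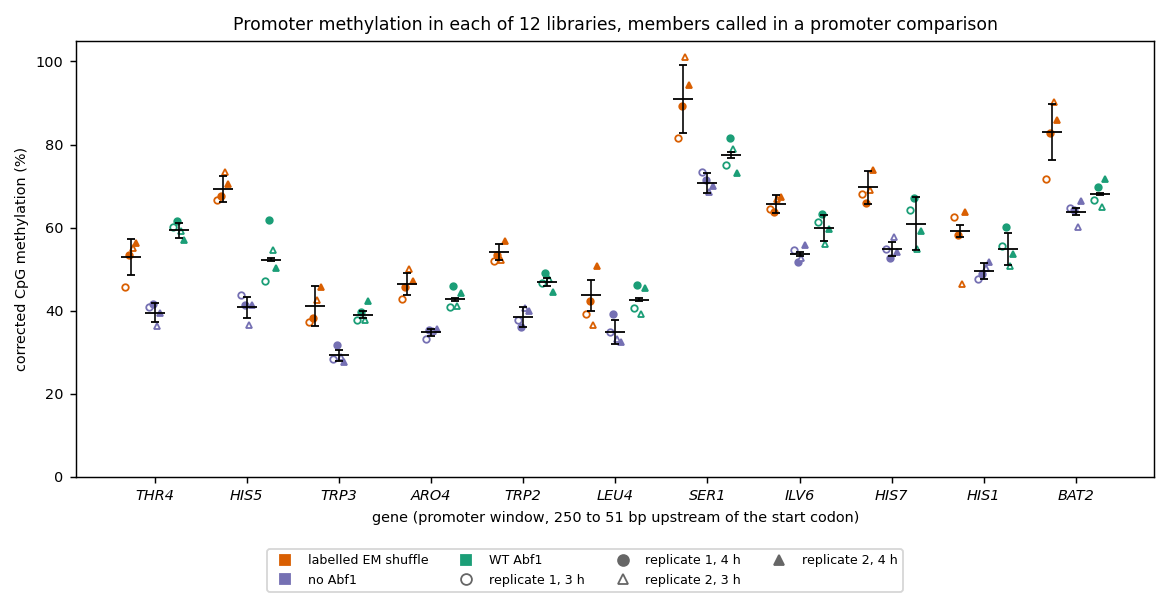
Corrected methylation of the promoter window (y axis, %) in each of 12 libraries for the 11 genes called in a promoter comparison (x axis). Circles are replicate 1, triangles replicate 2, open symbols 3 h and filled symbols 4 h; bars are the mean ± SD of 2 replicates. THR4 stands at 52.9% in the libraries labelled EM shuffle, 39.5% in no Abf1 and 59.4% in WT Abf1.

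At the Abf1 matches the libraries labelled EM shuffle had no called flank among the 11 when set against WT Abf1 in the limma-moderated fit, against 21 of 753 (2.79%) genome-wide. Without the offset 3 were called, all lower. TRP2 flanks stood at 80.0, 86.6, 90.0 and 89.1% in the libraries labelled EM shuffle, against the WT Abf1 values above, and LYS4 flanks at 55.1, 60.3, 47.2 and 55.7%. The corresponding differences from WT Abf1 were 0.46 ± 0.27 and 0.15 ± 0.17 log2 odds (limma-moderated adjusted p of 0.419 and 0.713). The lowest adjusted p was 0.186, at ARO3 (−0.55 ± 0.23). In the far upstream window the set had no call in the limma-moderated fit, where 1.45% of all windows were called (0.825% higher and 0.623% lower). There 5 of 46 had an unadjusted p under 0.05, against 11.3% of all, and 6 were called without the offset, all lower. In the gene body the set had no call either, against 0.334% of all windows, with 1 of 45 at an unadjusted p under 0.05, against 5.16% of all, and 7 called without the offset, all lower.

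The start of ARO3 was the exception. It stood at 22.2, 22.0, 18.2 and 19.4% in the libraries labelled EM shuffle, against 33.2, 32.9, 32.3 and 29.8% in WT Abf1, a difference of −0.82 ± 0.20 log2 odds (limma-moderated adjusted p = 0.042). It was the only call among 44 start windows of the set in this comparison, where 0.408% of all windows were called (0.153% higher and 0.255% lower), and it was lost when either replicate of these 2 constructs was left out. With no adjustment, 2 of the 44 had p under 0.05, against 6.48% of all windows. The same ARO3 window differed by −0.02 ± 0.19 between the libraries labelled EM shuffle and no Abf1. Sites of the ARO3 promoter lay between the other constructs, with 36.5% ± 8.09 at −177 and 35.7% ± 3.63 at −84 in the libraries labelled EM shuffle. At THR4 the sites at −107 and −99 stood at 43.2% ± 11.6 and 32.0% ± 5.08 in the libraries labelled EM shuffle, 37.2% ± 0.546 and 34.0% ± 3.15 in no Abf1, and 63.6% ± 0.112 and 56.8% ± 6.25 in WT Abf1. Both sites lay below WT Abf1 in these libraries and near the no Abf1 values.

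Against no Abf1, the libraries labelled EM shuffle were higher at 11 of 45 promoters and lower at none, where 655 of 5846 windows (11.2%) were called genome-wide, 466 higher (7.97%) and 189 lower (3.23%). This comparison and the one of no Abf1 with WT Abf1 share the no Abf1 libraries, so that they are not independent. The 11 genes were HIS5, TRP2, TRP3, THR4, BAT2, ARO4, ILV6, SER1, LEU4, HIS1 and HIS7, with differences of 0.36 to 1.38 log2 odds. All kept their direction without the offset, but then 9 genes of the set were called, 3 higher and 6 lower. Leaving out 1 replicate gave 2 to 12 calls, with 2 without EM shuffle replicate 2.

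The greatest difference was at HIS5, where the libraries labelled EM shuffle stood at 66.6, 67.6, 73.3 and 70.6%, against 43.7, 41.2, 36.6 and 41.4% in no Abf1 (1.38 ± 0.23 log2 odds, limma-moderated adjusted p = 0.00012). The promoter window of HIS5 is shown on the coding strand with the Gcn4 core in capitals, because this difference rests on its 2 CpG sites.
HIS5 (chrIX:142678-142877, plus strand): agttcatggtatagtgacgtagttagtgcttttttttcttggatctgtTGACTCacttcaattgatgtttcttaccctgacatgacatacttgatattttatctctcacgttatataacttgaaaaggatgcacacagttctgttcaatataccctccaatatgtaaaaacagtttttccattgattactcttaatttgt
The WT Abf1 libraries of HIS5, at 47.2, 61.9, 54.6 and 50.4%, lay between the other constructs. SER1, phosphoserine aminotransferase, stood at 81.7, 89.2, 101 and 94.2% in the libraries labelled EM shuffle, against 73.3, 71.5, 68.5 and 69.9% in no Abf1 (0.74 ± 0.20, limma-moderated adjusted p = 0.017). The annotated gene FYV12 lies 95 bp upstream of SER1 and overlaps this window. BAT2 stood at 71.6, 82.9, 90.4 and 85.9%, against 64.8, 64.2, 60.2 and 66.5% in no Abf1 (0.71 ± 0.16, limma-moderated adjusted p = 0.0035). The groups did not overlap at these 3 genes. On corrected percentages this held, with EM shuffle higher, at 31 of the 45 promoters and at 34.3% of all windows, so such a gap was common in this comparison. HIS7, which makes imidazole glycerol phosphate, averaged 69.8% ± 3.99 and HIS1 59.2% ± 1.39 in the libraries labelled EM shuffle, against 54.8% ± 1.65 and 49.6% ± 1.9 in no Abf1. ARG1, THR1 and HIS4 came next, with limma-moderated adjusted p of 0.060, 0.068 and 0.077.

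At the match flanks 9 of 11 were called in this comparison, 8 higher and 1 lower, against 64.0% genome-wide (60.3% higher and 3.72% lower). The higher values ran from 0.33 log2 odds at LYS21, where the sign turned without the offset (−0.0265), to 2.42 ± 0.24 at TRP2, and the lower one was LYS4, at −1.27 ± 0.17 (limma-moderated adjusted p = 1.38e-07). In the far upstream window 10 of 46 genes were called, 9 higher and LYS4 lower, against 8.23% of all windows (4.75% higher and 3.48% lower). Unadjusted, 15 of the 46 had p under 0.05, against 18.6% of all. Without the offset 15 were called there, 4 higher and 11 lower. In the start window TRP3 was lower (−0.60 ± 0.14, with 3.15% of all windows called, 0.936% higher and 2.21% lower) unless EM shuffle replicate 2 or no Abf1 replicate 1 was left out, and in the gene body TRP2 was higher (0.74 ± 0.18) and TRP3 lower (−0.41 ± 0.11), with 2.87% of all called (1.10% higher and 1.77% lower) and no call left without EM shuffle replicate 2 or no Abf1 replicate 2. Without the offset 25 and 36 genes were called in these windows, all lower.

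The 4 h aliquots were slightly above the 3 h aliquots. The mean over 45 promoters was higher at 4 h by 2.47 percentage points in the libraries labelled EM shuffle, 0.588 in no Abf1 and 1.42 in WT Abf1, with 32, 29 and 27 of 45 genes higher at 4 h. The change with time differed between constructs at no promoter window in any of the 3 comparisons in the limma-moderated fit (0 of 5846), and at an unadjusted p under 0.05 there were 1, 3 and 3 of 45 genes of the set for no Abf1 against WT Abf1, EM shuffle against WT Abf1 and EM shuffle against no Abf1. These counts are near the 5.71%, 4.96% and 5.10% of all windows in the same comparisons.

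Among other genes of amino acid metabolism calls were as follows. Of 40 further synthesis genes, 3 were called in no Abf1 against WT Abf1 (7.5%, against 11.6% of all windows), all lower: PRO3, which completes proline synthesis, ARG7, ornithine acetyltransferase, and ASN1, an asparagine synthetase. PRO3 averaged 29.5% in no Abf1 and 46.3% in WT Abf1 (−1.03 ± 0.15 log2 odds), ARG7 31.3% and 42.4% (−0.69 ± 0.10), and ASN1 43.5% and 55.1% (−0.64 ± 0.15). With the libraries labelled EM shuffle set against WT Abf1, 1 of the 40 was called (2.5%, against 1.08% of all), the aspartate aminotransferase gene AAT2, which was higher (63.4% against 52.6%, 0.42 ± 0.10, limma-moderated adjusted p = 0.044). Against no Abf1, 7 of the 40 were called there (17.5%, against 11.2% of all): AAT2, PRO3, ARG7, ASN1, MET8 and MET10 higher and ALT1 lower. Of 17 tested regulators of these pathways none was called in no Abf1 against WT Abf1 (1 at an unadjusted p under 0.05, against 20.5% of all), and ARG80 was higher in the libraries labelled EM shuffle than in no Abf1 (0.40 ± 0.13).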

How the data were processed

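ODM-seq of 12 libraries (3 constructs, 2 biological replicates, aliquots after 3 h and 4 h) was analysed. Per the study's methods the authors called modified bases with Dorado, mapped reads with minimap2 2.17 and SAMtools 1.9 and 1.15 to sacCer3 (R64), tabulated methylation with modkit and used R 4.2.0. The deposited tables give, per position and strand, the count of valid calls, the methylated fraction divided by the authors' correction factor, a ratio of genome averages, and an occupancy column (1 minus that value), not used here. Where that division takes values above 1 the deposited column is a ratio and not a fraction. Methylated calls were recovered as fraction × factor × count, rounded to whole calls, and strands were summed. Sites needed 5 calls in every library (353646 of 354295 sites, 99.8%) and windows 2 sites.

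Each window was fitted with a quasi-binomial logistic model over the 6 preparations of the 3 constructs (pseudocount 0.5, offset for the genome average), with dispersions moderated by limma 3.58.1 in R 4.3.3 and Benjamini-Hochberg adjustment over all windows. Tables and plots were made with Python 3.11.15, numpy 2.4.6, pandas 2.3.3 and matplotlib 3.10.9. Tested on simulated data for no Abf1 against WT Abf1 (5846 windows, 200 changed), the model called 189 windows, recovered 87.5% of the changed ones, and 7.41% of its calls were false. With no change simulated it called 0 windows, and 5.18% of unadjusted p were under 0.05. The 87.5% is a single share over all 200 changed windows. It is not a value for differences as small as the −0.34 log2 odds at ILV6.

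The genes named are those called in a promoter comparison, the 3 nearest that did not pass in each, those with an Abf1 match 50 to 500 bp upstream, the highest and lowest promoter of each pathway in WT Abf1, and genes of other lists that passed. Genes called in the other windows were named after their values were seen. The members and lists were chosen with earlier results of these data known. The 3 h and 4 h aliquots come from the same preparation and were summed per replicate for the tests. Alternatives were the time points alone, other minimums, windows, models and scalings, a replicate block and leaving out each replicate. Equal replicate numbers were not treated as pairs in the main fits.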

Additional observations from a re-analysis of the deposited data

Results flagged for a closer look

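In 9 of 120 groups of 4 libraries 1 library stood apart from the other 3 by Dixon's criterion, which chance flags in about 1 in 20 groups. A library stood low at the THR4 flanks in the libraries labelled EM shuffle (57.39%, the others 72.3 to 73.7%), the LEU9 flanks in the same construct (71.31%, the others 81.4 to 82.7%) and the LYS4 promoter in the same construct (18.64%, the others 23.0 to 23.1%). It stood high at the ARO3 flanks there (76.91%, the others 54.6 to 58.3%). In no Abf1 a library stood high at the PRO1 flanks (35.23%, the others 33.7 to 33.9%). In WT Abf1 a library stood low at the LYS21 flanks (50.57%, the others 57.3 to 57.9%) and the ILV2 promoter (19.08%, the others 23.0 to 23.2%), and high at the LYS4 flanks (57.45%, the others 46.8 to 48.2%) and the ARG1 flanks (76.18%, the others 67.5 to 68.4%).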

How the results depend on the processing

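Of 485 alternative fits of the 35 called promoters and match flanks, 376 kept the call and 484 the direction. In no Abf1 against WT Abf1, 6 promoters were called, 2 with the 3 h or the 4 h aliquots alone, no offset or the window of 200 to 1 bp, 3 with limma on log2 odds, 8 without CpG sites in Abf1 matches, and 2 to 5 without 1 replicate. In EM shuffle against WT Abf1, where 0 were called, limma on log2 odds gave 1, limma on site means 22 and no offset 2, and 0 were called without any 1 replicate. In EM shuffle against no Abf1, 11 were called, 2 at 3 h alone, 35 with site means, 1 in the window of 200 to 1 bp, and 2 to 12 without 1 replicate. The offset moves EM shuffle by −0.27 and no Abf1 by 0.09 log2 odds. The far upstream windows gave 8 to 12, 0 to 1 and 8 to 12 calls without 1 replicate, and 6 in EM shuffle against WT Abf1 without the offset. The start windows gave 0 to 3, 0 to 1 and 0 to 2 without 1 replicate, and 25 in EM shuffle against no Abf1 without the offset. The gene body windows gave 1 to 6, 0 to 0 and 0 to 3 without 1 replicate, and 6, 7 and 36 without the offset. These 3 windows' alternatives were chosen after seeing the data. The match flanks gave 7 to 9, 0 to 0 and 8 to 9 without 1 replicate, and 3 in EM shuffle against WT Abf1 without the offset. TRP5 turned from −0.08 log2 odds against WT Abf1 to 7.26 percentage points with site means (adjusted p = 0.0282, limma) and from −0.27 against no Abf1 to 8.27 points (adjusted p = 0.00872, limma), and the LYS21 flanks in EM shuffle against no Abf1 turned to −0.0265 without the offset. The cause was not tested.

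With the replicate number as a block 6, 0 and 11 promoters and 9, 0 and 8 match flanks were called in the same order of comparisons, and the LYS21 flanks lost their call in EM shuffle against no Abf1. Deviations of same-numbered samples correlated at −0.02, 0.01 and 0.01, so no pairing by number was seen in them. Whether same-numbered cultures were handled together was not tested. The limits throughout are 2 replicates a construct and a batch label that cannot be told apart from EM shuffle.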
